A study of Mus musculus with 12 samples.

Results

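Complex I of the respiratory chain was followed through the 46 protein-coding genes of the count table whose symbol starts with Nduf, out of 42748 genes in all, in kidneys of mice with and without Ybx3 and with and without ischemia/reperfusion injury (IRI). The 46 genes were 7 core subunits, 9 accessory subunits of the peripheral arm, 20 accessory subunits of the membrane arm, 8 assembly factors and 2 relatives that are not part of complex I, Ndufa4 and Ndufa4l2. They were chosen by name, not by their values. The 4 groups were Ybx3 knockout kidneys after IRI, wild-type kidneys after IRI, Ybx3 knockout control kidneys and wild-type control kidneys, each with 3 libraries of total RNA from whole kidney of adult mice. In IRI the blood supply of the organ is interrupted and then let back in. Ybx3 encodes DNA-binding protein A, a nucleic acid-binding protein that the series title links to mitochondrial function. The strain, sex, age in weeks, time after injury, reach of the deletion and whether replicates were separate animals are not stated by the labels, so the p-values below measure the spread between these libraries, which may be partly technical.

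Complex I takes electrons from NADH and passes them to ubiquinone, and uses the energy to pump protons out of the mitochondrial matrix. Its peripheral arm holds the flavin and a chain of iron-sulfur clusters, and its membrane arm holds the proton pumps, whose central subunits are encoded in the mitochondrial genome. Accessory subunits surround both arms, and assembly factors bind to intermediates and leave before the complex is finished. Tubule cells of the kidney are rich in mitochondria, and complex I is a known site of radical formation when ischemic tissue is reperfused.

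The libraries held 39074224 to 67948710 counts, and the Nduf genes took between 0.162% and 0.258% of them. Levels are given as CPM, the counts scaled to a common library size. Ybx3 reached 13.6, 15.6 and 18.6 CPM in knockout IRI replicates 1, 2 and 3, against 81.1, 53.9 and 104 CPM in wild-type IRI, and 12.9, 9.28 and 9.48 CPM in knockout control, against 36.9, 32.99 and 30.2 CPM in wild-type control. Every knockout library was below every wild-type library, and the remaining counts are not explained by the labels, which do not say which part of the gene was deleted. The summed level of 4 Y-linked genes was 45.2, 227 and 1.26 CPM in knockout IRI, 207, 33.2 and 307 in wild-type IRI, 1.18, 249 and 261 in knockout control and 1.14, 1.79 and 1.54 in wild-type control. Every wild-type IRI library was far above every wild-type control library in this sum, although IRI replicate 2 was well below the other two, so injury and what this sum stands for cannot be told apart in wild type. Adrenal cortex transcripts summed to 272, 1397 and 6.06 CPM in knockout IRI and to between 5.15 and 7.49 CPM in the other libraries. Brown fat markers summed to 17.9, 12.9 and 22.2 CPM in knockout IRI and 2.38, 2.65 and 5.77 in wild-type IRI, without overlap. They summed to 39.5, 3.74 and 10.3 CPM in knockout control and 16.2, 0.997 and 4.57 in wild-type control. The part of other tissue in the Nduf values was not tested. The injury marker Havcr1 reached 204 to 769 CPM in the 6 injured libraries and 0.859 to 1.57 CPM in the 6 controls.

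Of the 46 genes, 45 passed the filter on low counts. Ndufa13, an accessory subunit of the membrane arm, had 0 counts in every library. Its span (ENSMUSG00000036199, chromosome 8, 69894180 to 69902558, mm10) lies inside that of Yjefn3 on the same strand without sharing an exon base with it, and shares 375 exon bases with Tssk6 on the other strand. The part of these neighbours in the count of 0 was not tested. The 7 subunits of the mitochondrial genome, mt-Nd1 to mt-Nd6 and mt-Nd4l, were also at 0 in every library and are not described. The library kit marks the strand, but whether the counting used it is not given. Ndufaf2 shares 65.6% of its exon bases with a gene on the other strand and Ndufb6 39.0%, so their counts may include reads of a neighbour. In all, 27 members share no exon base with another annotated gene.

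Levels of different genes were compared per kilobase of the principal transcript. In wild-type control kidneys Ndufa4, a subunit of cytochrome c oxidase by present assignment, was highest at 174 ± 26.1 CPM per kilobase (mean ± SD, n = 3). Ndufb9, a subunit of the membrane arm that carries an LYR motif, had 139 ± 15.1 CPM per kilobase. These 2 genes overlapped within 1 SD, and by the length of all annotated exons Ndufb9 was first at 95.2, followed by Ndufa1 at 88.5 and Ndufa4 at 76.8 CPM per kilobase. The 8 assembly factors ranked 31 to 43 of 45 per kilobase of principal transcript, from Ndufaf2 at 36.5 ± 5.10 to Ndufaf4 at 6.03 ± 0.109 CPM per kilobase. Ndufa4l2, a relative of Ndufa4 that hypoxia induces in other cells, was lowest at 2.17 ± 0.172 CPM per kilobase.

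Promoter sequences, from 250 bases before to 50 bases after the start of the RefSeq transcript, were on hand for 40 of the 46 genes (42 promoters, GRCm38.p6). The pattern of the nuclear respiratory factor NRF1, GCGC followed by any 2 bases and GCGC, stood in 28.6% of the 42 promoters and in 6.23% of all 32851 promoters of this length. AAGATGGC, the pattern of YY1, stood in 19.0% of them, against 2.75% of all. For the ETS pattern CCGGAAG the shares were 14.3% and 8.86%, for the estrogen-related receptor element AAGGTCA 7.14% and 4.72%, and for CCAAT 33.3% and 37.4%. Both strands were searched, and a match is a match of letters only. The median GC content was 59.3% in the Nduf promoters and 52.7% in all promoters, and its part in these shares was not tested. The promoters of 5 members are printed 5′ to 3′ on the strand of the gene, with the matching letters in capitals. Ndufc1, Ndufs8 and Ndufv2 are examples from the 7 members whose fall after IRI in wild type, described next, held whichever library was left out, picked after the matches were seen to show different patterns, and Ndufb3 and Ndufaf2 because they alone had a positive fold change there.
Ndufc1 chr3:51408906-51409205 (minus strand), YY1 letters: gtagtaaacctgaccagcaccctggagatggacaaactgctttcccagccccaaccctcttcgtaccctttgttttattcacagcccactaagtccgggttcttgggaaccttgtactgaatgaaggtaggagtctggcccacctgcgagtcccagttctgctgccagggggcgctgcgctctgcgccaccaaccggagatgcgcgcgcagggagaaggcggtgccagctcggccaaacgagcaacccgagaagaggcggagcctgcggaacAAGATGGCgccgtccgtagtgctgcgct
Ndufs8 chr19:3912725-3913024 (minus strand), CCAAT and ETS letters: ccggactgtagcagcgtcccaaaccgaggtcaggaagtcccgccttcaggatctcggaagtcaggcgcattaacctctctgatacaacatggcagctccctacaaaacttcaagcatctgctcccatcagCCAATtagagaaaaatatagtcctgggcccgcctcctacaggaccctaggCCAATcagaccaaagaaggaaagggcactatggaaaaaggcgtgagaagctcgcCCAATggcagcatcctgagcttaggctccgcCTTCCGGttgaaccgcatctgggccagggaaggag
Ndufv2 chr17:66101510-66101809 (minus strand), NRF1 letters in 2 overlapping matches: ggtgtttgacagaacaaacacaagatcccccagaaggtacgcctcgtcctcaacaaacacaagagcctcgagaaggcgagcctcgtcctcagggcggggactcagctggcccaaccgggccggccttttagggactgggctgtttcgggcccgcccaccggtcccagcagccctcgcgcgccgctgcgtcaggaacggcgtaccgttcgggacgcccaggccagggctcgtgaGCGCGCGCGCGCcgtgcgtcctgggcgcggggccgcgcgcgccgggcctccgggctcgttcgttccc
Ndufb3 chr1:58586147-58586446 (plus strand), CCAAT letters on the other strand: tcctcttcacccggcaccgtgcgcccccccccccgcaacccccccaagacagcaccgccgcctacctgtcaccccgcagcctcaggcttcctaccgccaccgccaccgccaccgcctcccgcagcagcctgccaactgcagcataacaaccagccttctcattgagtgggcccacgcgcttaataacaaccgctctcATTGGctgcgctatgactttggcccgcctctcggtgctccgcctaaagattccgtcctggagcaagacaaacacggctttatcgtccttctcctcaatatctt
Ndufaf2 chr13:108158576-108158875 (minus strand), adjoining CCAAT letters on both strands: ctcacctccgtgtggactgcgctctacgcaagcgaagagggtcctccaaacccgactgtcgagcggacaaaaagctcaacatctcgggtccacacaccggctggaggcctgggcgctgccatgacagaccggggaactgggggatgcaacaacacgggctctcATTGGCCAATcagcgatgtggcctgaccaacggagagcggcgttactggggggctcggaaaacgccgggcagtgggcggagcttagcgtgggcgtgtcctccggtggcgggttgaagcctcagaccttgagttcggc

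After IRI in wild-type kidneys 22 of the 45 tested genes fell and none rose, with a median log2 fold change of -0.42, that is -25.3%. Across all 19218 genes tested, 9.41% were called lower and 13.1% higher, and the median was 0.02. The fall was spread over both arms of the complex: 21 of 35 subunits fell, led by Ndufc1 (-0.80) and Ndufs8 (-0.77), against 1 of 8 assembly factors. All but Ndufb3 and Ndufaf2 had a negative fold change. In 33 of the 45 genes every IRI library was below every control library, a pattern that 19.9% of all tested genes showed in this direction. The summed level of the 35 subunits was 1529, 1754 and 1583 CPM in wild-type IRI replicates 1, 2 and 3, against 2371, 2132 and 2042 CPM in wild-type control. The IRI libraries were all lower than the controls, and replicate 2, which had the least Havcr1 of the 3, stood nearest to them. That library also had the lowest Y-linked sum of the 3 and the highest sum of thick ascending limb and distal tubule markers. The part of any of these in its levels was not tested. In whole tissue, fewer tubule cells and less RNA per cell cannot be told apart.

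The core subunits of the peripheral arm carry the electron path, and 4 of the 7 encoded in the nucleus fell in wild type (median log2 fold change -0.51). Ndufs8, which holds iron-sulfur clusters near the membrane, had 33.8, 39.4 and 26.5 CPM in wild-type IRI, against 65.1, 53.6 and 51.6 CPM in wild-type control. The lowest control was above the highest IRI library, and the log2 fold change was -0.77 (SE 0.16, edgeR adjusted p = 0.00986). Ndufs1, the large subunit with several of the clusters, had 56.4, 71.2 and 56.1 CPM after IRI, against 103, 95.97 and 91.2 CPM in control. Its groups were also apart (-0.66, SE 0.13, edgeR adjusted p = 0.00761). Ndufv2, whose cluster lies beside the flavin, had 58.8, 73.9 and 55.01 CPM after IRI, against 100.4, 90.2 and 92.5 CPM in control. Here too no library overlapped (-0.59, SE 0.13, edgeR adjusted p = 0.0106). Ndufs3, a subunit near the ubiquinone site, had 47.1, 59.7 and 47.8 CPM after IRI, against 77.03, 72.1 and 71.5 CPM in control, with the groups apart (-0.51, SE 0.12, edgeR adjusted p = 0.0152).

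The other core subunits missed the threshold in wild type, although their groups did not overlap. Ndufs7, which carries the last cluster before ubiquinone, had 45.5, 52.3 and 31.3 CPM after IRI, against 64.4, 57.5 and 57.3 CPM in control (-0.47, SE 0.16, edgeR adjusted p = 0.0587). There IRI replicate 3 was the lowest, well under the others. Ndufv1, which binds NADH and the flavin, had 121, 130.3 and 133 CPM after IRI, against 168, 147 and 140.2 CPM in control, the smallest difference of the 7 (-0.25, SE 0.12, edgeR adjusted p = 0.147). Ndufv1 and Ndufs8 both lie on chromosome 19, at 4007384 to 4012806 and 3908863 to 3912774 (mm10), and their fold changes were -0.25 and -0.77.

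**Figure D1:**
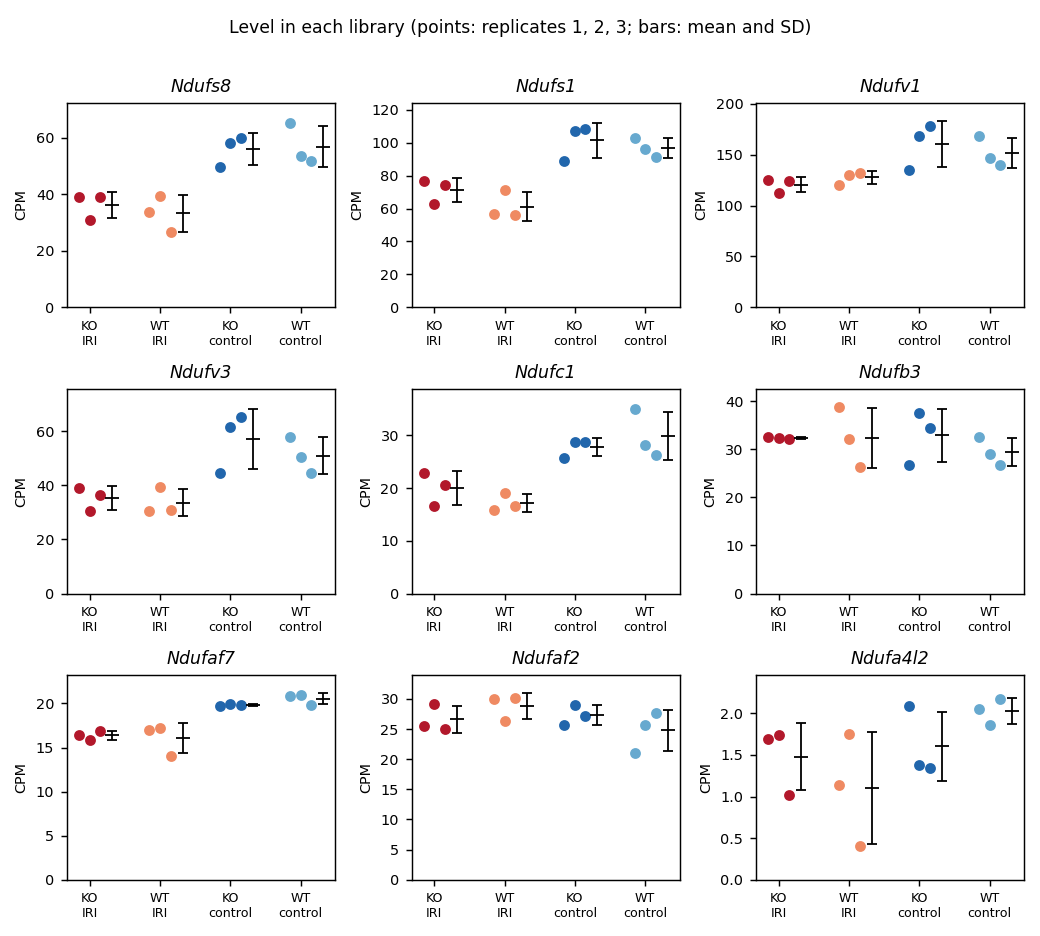
Level in CPM of 9 members in each library, with the groups in the order knockout IRI, wild-type IRI, knockout control and wild-type control; points are replicates 1, 2 and 3 and bars the mean and SD of 3. Ndufs8, Ndufs1, Ndufv3, Ndufc1 and Ndufaf7 were lower in every IRI library than in every control library of the same genotype, whereas the groups of Ndufb3 and Ndufaf2 overlapped.

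Of the 9 accessory subunits of the peripheral arm 4 fell in wild type, Ndufv3, Ndufa9, Ndufa6 and Ndufa12, with a median of -0.34 over the 9. Ndufv3, a small subunit of the NADH-binding module, had 30.5, 39.4 and 30.9 CPM in wild-type IRI, against 58.05, 50.5 and 44.5 CPM in wild-type control (-0.60, SE 0.17, edgeR adjusted p = 0.0318). Ndufa9, a subunit with a nucleotide-binding fold where the arms meet, had 67.2, 82.7 and 76.3 CPM after IRI, against 114, 106 and 98.3 CPM in control (-0.49, SE 0.12, edgeR adjusted p = 0.0157). Neither gene's groups overlapped, and IRI replicate 2 came nearest to the controls in both. Ndufa6, an LYR protein that binds the acyl carrier protein, was at -0.48 and Ndufa12 at -0.34. The fold change nearest to 0 in this group was that of Ndufa2, a subunit with a thioredoxin-like fold, which had 37.3, 42.4 and 39.2 CPM after IRI, against 49.8, 43.8 and 37.7 CPM in control. Its groups overlapped and it was not called (-0.14, SE 0.14, edgeR adjusted p = 0.468).

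In the membrane arm 13 of the 19 tested accessory subunits fell in wild type, with a median of -0.52. Ndufc1, a small membrane-spanning subunit whose promoter is printed above, had 15.9, 19.02 and 16.5 CPM in wild-type IRI, against 34.96, 28.2 and 26.3 CPM in wild-type control. The highest IRI library was well under the lowest control, and the log2 fold change was the most negative of all subunits (-0.80, SE 0.15, edgeR adjusted p = 0.00644). Ndufb5, a subunit with a single membrane span in the far part of the arm, had 30.9, 41.1 and 32.1 CPM after IRI, against 54.6, 54.8 and 55.4 CPM in control. Its controls were almost equal and its IRI libraries all lower (-0.66, SE 0.13, edgeR adjusted p = 0.00681). Ndufb10 (-0.66), Ndufa11 (-0.59), Ndufs5 (-0.56), Ndufb11 (-0.55), Ndufb8 (-0.55), Ndufb2 (-0.54), the acyl carrier protein Ndufab1 (-0.53), Ndufc2 (-0.52), Ndufa3 (-0.47), Ndufb4 (-0.43) and Ndufb9 (-0.42) made up the rest of the 13. Ndufb11 and Ndufa1, whose fold change was -0.25 and not called, lie on the X chromosome.

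Ndufb3, a subunit of the far part of the membrane arm, stood apart from these. It had 38.8, 32.1 and 26.4 CPM in wild-type IRI, against 32.6, 29.1 and 26.7 CPM in wild-type control. IRI replicate 1 was above every control and replicate 3 below every control, so the groups overlapped (0.14, SE 0.16, edgeR adjusted p = 0.540).

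The assembly factors had a median of -0.23 in wild type, and Ndufaf7 alone of the 8 fell. Ndufaf7, a methyltransferase, had 16.96, 17.2 and 14.1 CPM in wild-type IRI, against 20.8, 20.98 and 19.9 CPM in wild-type control, without overlap (-0.35, SE 0.10, edgeR adjusted p = 0.0294). Ndufaf8, the partner of NDUFAF5 in human cells, had the fold change nearest to 0, with 7.94, 8.33 and 6.26 CPM after IRI, against 9.44, 8.40 and 7.81 CPM in control (-0.19, SE 0.15, edgeR adjusted p = 0.380). The values of IRI replicates 1 and 2 lay among the controls. Ndufaf2, a relative of Ndufa12 that holds its place during assembly, had 29.97, 26.3 and 30.1 CPM after IRI, against 20.95, 25.7 and 27.7 CPM in control (0.22, SE 0.12, edgeR adjusted p = 0.209). Its groups overlapped, while Ndufa12, which takes its place in the finished complex, fell. Ndufaf3 and Ndufaf4, which act together early in assembly, were at -0.33 and -0.19, Ndufaf1, which acts on the membrane arm, at -0.22, Ndufaf5 at -0.28 and Ndufaf6 at -0.24, none of them called. Whether assembly factors and subunits differ in their change was not tested.

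The relatives outside complex I were not called. Ndufa4 had 82.4, 81.2 and 108 CPM in wild-type IRI, against 124, 98.4 and 95.4 CPM in wild-type control, with IRI replicate 3 among the controls (-0.23, SE 0.16, edgeR adjusted p = 0.315). Ndufa4l2 had 1.14, 1.75 and 0.404 CPM after IRI, against 2.05, 1.86 and 2.18 CPM in control. No IRI library reached a control, but the 3 were far apart (-0.88, SE 0.42, edgeR adjusted p = 0.145).

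The count of 22 in wild type, like the 22.5% of all genes called in either direction, rested on the libraries in the fit. It was 9, 10 and 13 without wild-type control replicate 1, 2 or 3, 7 without wild-type IRI replicate 1, 3 with only the wild-type libraries in the fit, and 0 with a Y-linked covariate, where the median log2 fold change was -0.41. Of all genes 12%, 8.04% and 8.57% were called without wild-type control replicate 1, 2 or 3, 10.5% without wild-type IRI replicate 1, 6.68% with the wild-type libraries alone and 1.59% with the covariate, so fewer genes were called over the whole table and not only among the Nduf genes. Ndufs8, Ndufs1, Ndufv2, Ndufc1, Ndufb5, Ndufa11 and Ndufb2 were called whichever of the 12 libraries was left out. Among the others described above, the call of Ndufs3 ended once the first wild-type IRI library was left out (adjusted p from edgeR then 0.0576), that of Ndufa9 without that library or wild-type control replicate 1 or 2 (at most 0.0550), that of Ndufaf7 without any of these 3 or wild-type control replicate 3 (at most 0.0971), and that of Ndufv3 without any of these 4 or wild-type IRI replicate 3 (at most 0.103). Over the 27 members that share no exon base with another gene the median was -0.34, and 11 of them fell.

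Marker levels of several cell types differed between the same libraries. The summed level of 6 proximal tubule markers, all detected, was 5133 to 7482 CPM in wild-type IRI, against 11048 to 15277 CPM in wild-type control, and that of 5 markers of the more distal nephron (thick ascending limb, distal tubule), all detected, 2154 to 4431 CPM, against 6911 to 7676 CPM. Neutrophil markers summed to 4.23 to 17.6 CPM after IRI, against 0.731 to 0.946 CPM in control, macrophage markers to 39.7 to 45.7 CPM, against 64.8 to 70.3 CPM, lymphocyte markers to 0.575 to 0.708 CPM, against 1.198 to 1.42 CPM with Ms4a1 at 0 throughout, and fibroblast markers to 188 to 495 CPM, against 219 to 279.6 CPM. The fibroblast sums overlapped between the groups and the others given so far did not. Sums of collecting duct markers (118 to 254 CPM after IRI, against 218 to 293 CPM in control) also overlapped. So did those of endothelium (243 to 317 CPM, against 292 to 341 CPM) and podocyte markers (183 to 352 CPM, against 300 to 374 CPM). The part of cell composition in the change of the Nduf genes was not tested.

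In knockout kidneys 4 Nduf genes fell after IRI and none rose, with a median of -0.34 and 44 of 45 negative. Of all tested genes 2.42% were called lower and 3.9% higher in this comparison, with a median of 0.02. Groups did not overlap, with IRI lower, in 31 of the 45 genes, against 15% of all tested genes. The subunits summed to 1781, 1497 and 1767 CPM in knockout IRI, against 1939, 2251 and 2312 CPM in knockout control. All IRI libraries were lower, and IRI replicate 2, the library with the most adrenal transcripts, was lowest for 34 of 35 subunits. It also had the most Havcr1 of the knockout IRI libraries, 463 CPM, against 234 and 204 CPM in replicates 1 and 3. The part of either in these levels was not tested. Control replicate 1 was lowest for 32 of 35 among the knockout controls. By Y-linked level, the low libraries were IRI replicate 3 at 1767 CPM and control replicate 1 at 1939 CPM, and the high libraries IRI replicate 2 at 1497 CPM and control replicates 2 and 3 at 2251 and 2312 CPM.

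Ndufv3 had 39.2, 30.4 and 36.3 CPM in knockout IRI, against 44.6, 61.6 and 65.3 CPM in knockout control (-0.70, SE 0.17, edgeR adjusted p = 0.0401). Ndufs8 had 38.9, 31.1 and 38.9 CPM after IRI, against 49.6, 58.3 and 59.99 CPM in control (-0.63, SE 0.16, edgeR adjusted p = 0.0446). In both genes the groups were apart, with replicate 2 lowest after IRI and replicate 1 lowest in control. Ndufc2, a membrane arm subunit, had 35.6, 29.9 and 35.7 CPM after IRI, against 43.3, 54.3 and 56.1 CPM in control (-0.60, SE 0.16, edgeR adjusted p = 0.0477). Ndufs1 had 76.6, 62.8 and 74.3 CPM after IRI, against 88.99, 107 and 108 CPM in control (-0.51, SE 0.13, edgeR adjusted p = 0.0423). The groups of both were apart. These 4 genes were the ones called, and all 4 were also called in wild type.

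Of the core subunits that were not called in knockout, the fold change was -0.41 (Ndufv1), -0.34 (Ndufs3), -0.34 (Ndufv2) and -0.15 (Ndufs7). Ndufv2 had 78.3, 62.7 and 75.6 CPM in knockout IRI, against 88.1, 90.5 and 95.3 CPM in knockout control, Ndufs3 58.8, 49.2 and 61.8 CPM, against 66.6, 73.4 and 74.9 CPM, and Ndufs7 54.6, 44.5 and 52.9 CPM, against 54.6, 54.5 and 59.8 CPM. The groups of Ndufv2 and Ndufs3 were apart, and in Ndufs7 IRI replicate 1 was level with the lower controls. Ndufv1 had 126, 113 and 124 CPM after IRI, against 135, 169 and 178 CPM in control, again with the groups apart. Among the accessory subunits Ndufc1 had 22.9, 16.5 and 20.7 CPM after IRI, against 25.7, 28.8 and 28.7 CPM in control (-0.47, edgeR adjusted p = 0.0831), and Ndufb5 41.4, 34.6 and 42.8 CPM, against 46.7, 51.5 and 53.3 CPM (-0.35, edgeR adjusted p = 0.122). Both were lower in every IRI library without passing the test. Ndufa9 had 85.7, 70.9 and 83.01 CPM after IRI, against 94.1, 109 and 110.2 CPM in control (-0.39), and Ndufa2 37.3, 31.5 and 39.6 CPM, against 34.6, 41.8 and 45.2 CPM (-0.17). The groups of Ndufa9 were apart and those of Ndufa2 overlapped. Ndufb3, with 32.6, 32.4 and 32.2 CPM after IRI and 26.8, 37.6 and 34.3 CPM in control, had a fold change near 0 (-0.02), and its IRI libraries lay between the controls.

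No assembly factor was called by edgeR in knockout (median -0.10, 2 of 8 with an unadjusted p under 0.05), and 1 by DESeq2 and 0 by limma-voom. Of all 19218 genes tested, 4402 had an unadjusted edgeR p under 0.05, and DESeq2 called 1191 lower and 1303 higher. Ndufaf7 had 16.4, 15.9 and 16.9 CPM in knockout IRI, against 19.7, 19.9 and 19.8 CPM in knockout control, lower in every library (-0.27, SE 0.10, edgeR adjusted p = 0.129). Ndufaf2 was at 25.5, 29.2 and 25.1 CPM after IRI, against 25.7, 28.99 and 27.1 CPM in control (-0.04), and Ndufaf8 at 8.13, 6.76 and 8.06 CPM, against 7.59, 9.16 and 8.64 CPM (-0.15). The groups of both overlapped. Ndufaf5, which in human cells hydroxylates an arginine of NDUFS7, was the one member with a positive fold change (0.17, not called). Ndufa4 had 84.6, 73.8 and 88.2 CPM after IRI, against 91.1, 122 and 124 CPM in control (-0.45, edgeR adjusted p = 0.124), and Ndufa4l2 1.69, 1.73 and 1.01 CPM, against 2.08, 1.38 and 1.34 CPM (-0.11, edgeR adjusted p = 0.922). The Ndufa4 groups were apart and those of Ndufa4l2 overlapped.

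The 4 calls in knockout were not stable. Their number was 0 without wild-type control replicate 1, 2 or 3, knockout control replicate 2 or 3 or any of the knockout IRI replicates, 0 without both libraries with adrenal transcripts (median -0.28) and 0 with the Y-linked covariate (median -0.34), and it was 7, 15 and 9 without wild-type IRI replicate 2, wild-type IRI replicate 3 or knockout control replicate 1. Of all genes 6.32% were called in either direction in the full fit. The share was between 0.912% and 5.29% where 1 library was left out and no member was called, 0.219% without both adrenal libraries, 6.02% with the covariate, and 9.28%, 14.7% and 7.23% in the fits with 7, 15 and 9 members. With DESeq2 in place of edgeR 20 members were called lower, and 13% of all genes were called. The proximal tubule markers summed to 4599 to 6923 CPM in knockout IRI, against 9450 to 16726 CPM in knockout control, and those of the more distal nephron to 2595 to 4319 CPM, against 5318 to 6366 CPM. Fibroblast markers summed to 334 to 491 CPM after IRI, against 217 to 237 CPM in control, neutrophil markers to 3.60 to 5.78 CPM, against 0.736 to 1.15 CPM, macrophage markers to 40.7 to 42.3 CPM, against 56.4 to 64.7 CPM, and lymphocyte markers to 0.668 to 0.726 CPM, against 0.918 to 1.61 CPM. None of these sums overlapped between the knockout groups. Sums of collecting duct markers (225 to 303 CPM after IRI, against 212 to 335 CPM in control) did overlap. So did those of endothelium (300 to 320 CPM, against 314 to 359 CPM) and podocyte markers (247 to 357 CPM, against 247 to 295 CPM). The part of cell composition in the values of the Nduf genes was not tested.

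**Figure D2:**
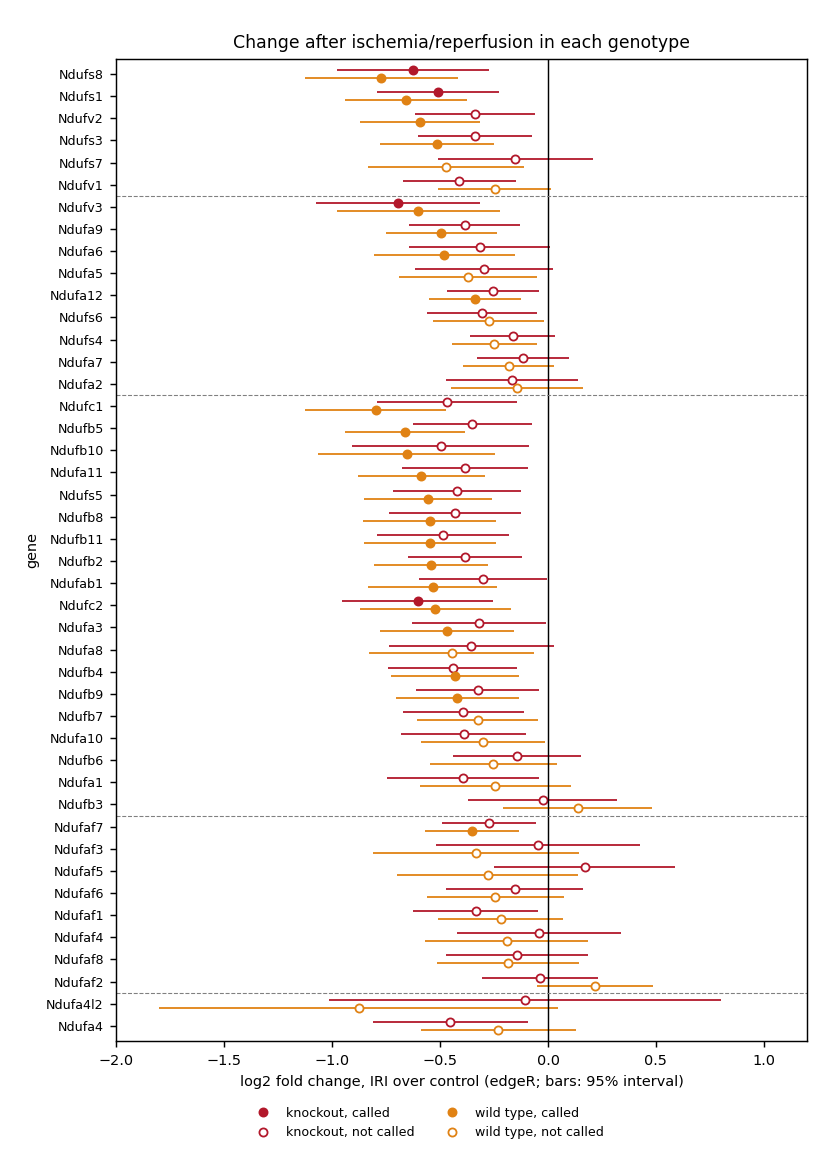
Log2 fold change of 44 tested members, IRI over control, in knockout and in wild type, with the 95% interval of the edgeR fit; filled points are called at an adjusted p under 0.05. The points lie to the left of 0 for 43 of these 44 members in knockout and 42 in wild type, and 4 and 22 are filled.

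No Nduf gene was called between the genotypes. In control kidneys no member was called between knockout and wild type by edgeR, DESeq2 or limma-voom, and none had an unadjusted edgeR p under 0.05. Of all genes 0.0104% were called, the median of the members was -0.03, and their fold changes ran from -0.34 to 0.16. The 3 members with the smallest p were Ndufa7, Ndufaf2 and Ndufb3. Ndufa7, a small subunit of the peripheral arm, had 41.2, 39.3 and 39.5 CPM in knockout control, against 48.4, 43.4 and 41.2 CPM in wild-type control (-0.15, 95% interval -0.36 to 0.06, edgeR adjusted p = 0.999). Ndufaf2 (0.14, -0.13 to 0.41) and Ndufb3 (0.16, -0.19 to 0.51) had the control values given above, and the groups overlapped in all 3 genes.

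After IRI no member was called between knockout and wild type by any of these 3 tools, and none had an unadjusted edgeR p under 0.05. Of all genes 0.0104% were called here. The members' median was 0.07, with 33 of 45 positive, but it depended on single libraries. It was 0.15 without wild-type IRI replicate 2, 0.01 without wild-type IRI replicate 3, and 0.03, 0.16 and 0.0021 without knockout IRI replicate 1, 2 or 3. Without wild-type IRI replicate 2, 8 members had an unadjusted p under 0.05 with a smallest edgeR adjusted p of 0.0908, and 4.43% of all genes were called. Ndufs1 (0.22, 95% interval -0.06 to 0.50, edgeR adjusted p = 0.472), Ndufv2 (0.21, -0.07 to 0.48) and Ndufb5 (0.19, -0.08 to 0.47) had the smallest p, and the groups of all 3 overlapped. In Ndufs1 knockout IRI held 76.6, 62.8 and 74.3 CPM and wild-type IRI 56.4, 71.2 and 56.1 CPM, with wild-type replicate 2 among the knockout values.

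**Figure D3:**
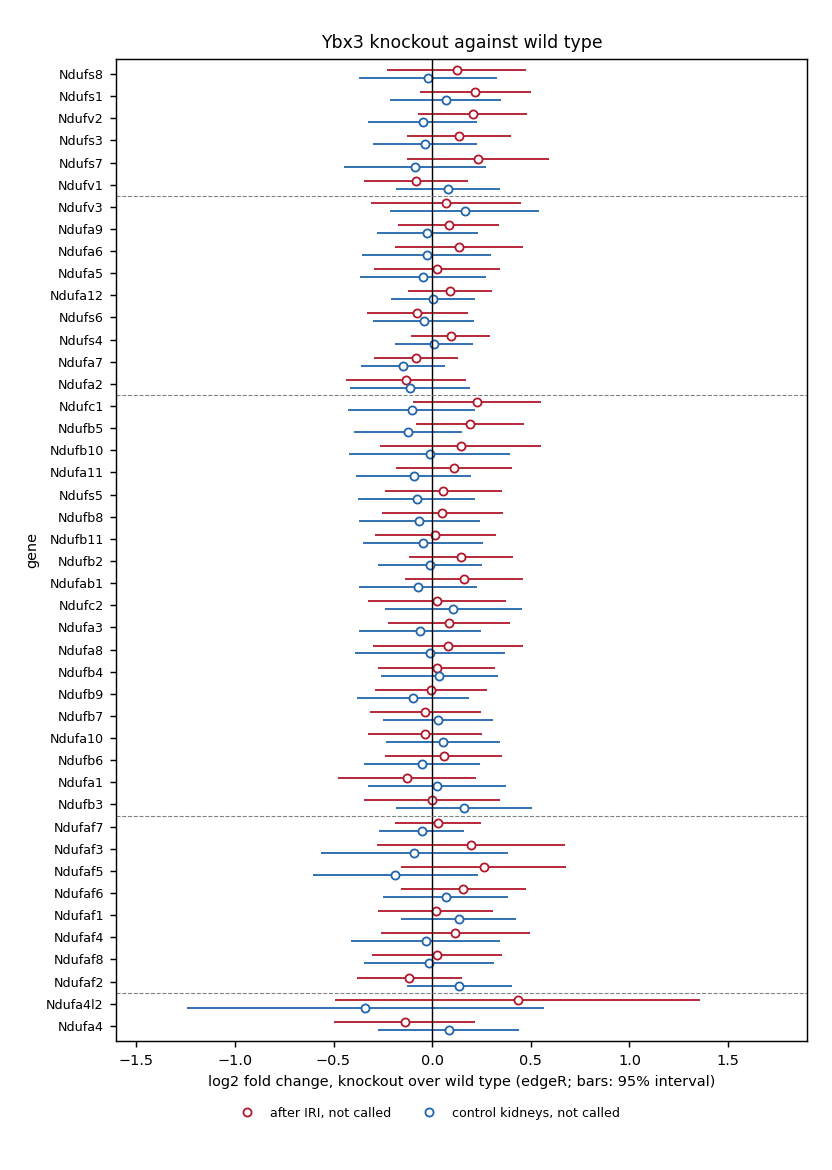
Log2 fold change of 44 tested members, knockout over wild type, after IRI and in control kidneys, with the 95% interval of the edgeR fit. No point is called, and every interval includes 0.

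The interaction, which asks whether the change after IRI differed between the genotypes, called no member by edgeR, DESeq2 or limma-voom, none had an unadjusted edgeR p under 0.05, and 0% of all genes were called by edgeR. A positive value means a less negative change in knockout than in wild type, and the median over the members was 0.09, with 0.02 to 0.18 when 1 library was left out. Without wild-type IRI replicate 2, 6 members had an unadjusted p under 0.05, with a smallest edgeR adjusted p of 0.150. The smallest p were those of Ndufb5 (0.31, 95% interval -0.08 to 0.70, edgeR adjusted p = 0.666), Ndufaf5 (0.45, -0.14 to 1.04) and Ndufc1 (0.33, -0.13 to 0.79). Ndufaf5 had 19.9, 19.3 and 23.4 CPM in knockout IRI, 18.1, 21.7 and 12.4 in wild-type IRI, 20.1, 17.8 and 17.8 in knockout control and 17.5, 21.5 and 24.4 in wild-type control, and wild-type IRI replicate 3 was the lowest of the 12. The 22 calls in wild type and the 4 in knockout therefore do not show that the genotypes differ. Over the 35 subunits the outer ends of the 95% intervals of this difference were -0.65 and 0.83.

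The levels of the subunits varied together from library to library. For each gene, the mean log2 level of the other subunits in the same library was subtracted from its own. The median SD over the 12 libraries was 0.27 for the subunits' own log2 levels and 0.11 for these relative levels, and it was smaller for 32 of 35 subunits. Shared scaling of a library enters both, and the libraries include all 4 groups.

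A few members changed relative to the other subunits. Ndufb3 stood at -0.47, -0.21 and -0.48 relative to the other subunits in knockout IRI and at 0.02, -0.48 and -0.54 in wild-type IRI, against -0.88, -0.60 and -0.77 in knockout control and -0.91, -0.90 and -0.96 in wild-type control (log2). All 6 IRI libraries were above all 6 controls, and the mean difference between IRI and control was 0.36 in knockout and 0.59 in wild type. The other subunits were themselves lower after IRI, with a median log2 fold change of -0.38 in knockout and -0.47 in wild type. A gene with an unchanged level therefore stands higher relative to them, and the fold change of Ndufb3 itself was -0.02 in knockout and 0.14 in wild type. Ndufa2 (0.20 in knockout and 0.32 in wild type) and Ndufb6 (0.23 and 0.21) were the other subunits relatively higher in every injured library. Among the assembly factors Ndufaf2 (0.32 and 0.67) and Ndufaf8 (0.21 and 0.25) were too. Ndufb6 and Ndufaf2 have the overlap on the other strand noted above, 39.0% and 65.6% of their exon bases. Ndufs8 stood at -0.21, -0.27 and -0.20 in knockout IRI and -0.18, -0.18 and -0.53 in wild-type IRI, against 0.04, 0.05 and 0.06 in knockout control and 0.12, 0.00 and 0.02 in wild-type control. It and Ndufs1 (-0.15 in knockout and -0.23 in wild type) were the 2 subunits of 35 that were relatively lower in every injured library. Some of these separations were barely open: the lowest IRI and highest control libraries were at -0.273 and -0.274 in Ndufa2 and at -0.669 and -0.673 in Ndufb6, and the highest IRI and lowest control libraries at 0.798 and 0.802 in Ndufs1. These relative levels are a description, with no test, and the share of all genes that separate in this way was not counted.

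**Figure D4:**
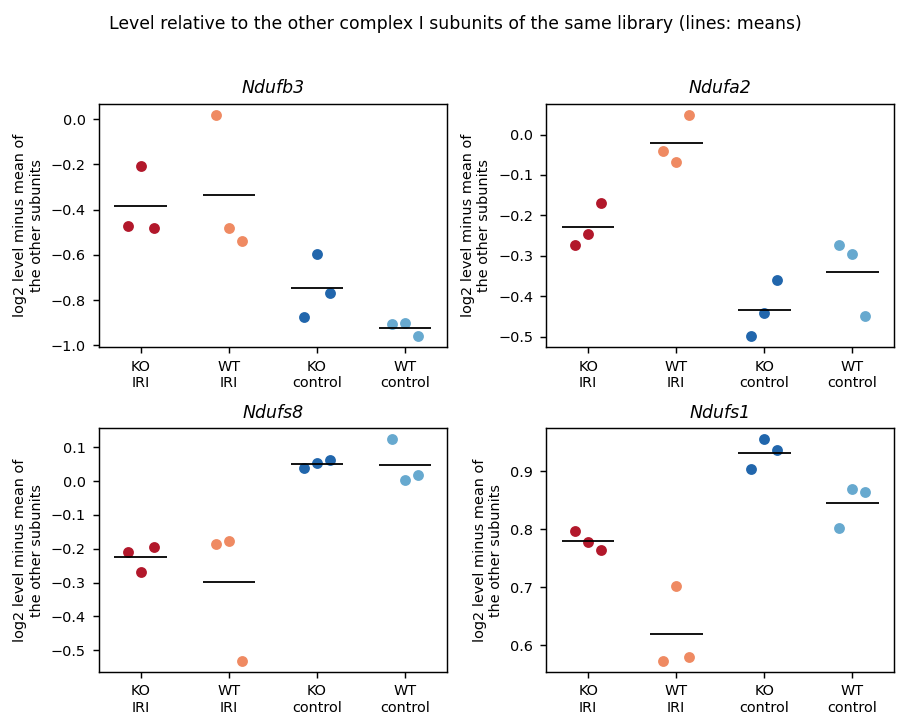
Log2 level of 4 subunits minus the mean log2 level of the other complex I subunits of the same library, by group; points are replicates and lines group means. In this relative level Ndufb3 and Ndufa2 are higher in all 6 IRI libraries than in all 6 controls, and Ndufs8 and Ndufs1 lower, with almost no gap in Ndufa2 (-0.273 and -0.274) and Ndufs1 (0.798 and 0.802). The other subunits were themselves lower after IRI.

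Other genes of the pathway give the setting, from lists of the remaining chain. Among all genes tested 9.41% were called lower and 13.1% higher after IRI in wild type, and 2.42% and 3.9% in knockout. Of 11 further tested assembly factors of complex I, 3 fell in wild-type kidneys after IRI and none rose: Acad9 (-0.55), a dehydrogenase that works with Ndufaf1, Aifm1 (-0.51), which helps import of small subunits, and Dmac2 (-0.65). Aifm1 also fell in knockout (-0.51, edgeR adjusted p = 0.0385), the only one of the 11 called by edgeR, while DESeq2 called 2 of the 11 lower. Of 16 genes that build iron-sulfur clusters, 1 fell in wild type (Isca1, -0.45) and 2 rose, the glutaredoxin Glrx5 (0.83) and the ferredoxin Fdx1l (0.59), counts near the 9.41% and 13.1% of all genes. In knockout 4402 of all 19218 genes tested had an unadjusted edgeR p under 0.05, and DESeq2 called 1191 lower and 1303 higher. None of the 16 was called there by edgeR or limma-voom, 7 had an unadjusted edgeR p under 0.05, and DESeq2 called 5 lower and 1 higher. The higher one was Fdxr, the ferredoxin reductase, named here after its values were seen, with 19.9, 60.3 and 8.36 CPM in knockout IRI, against 7.96, 8.96 and 8.61 CPM in knockout control. It was high in the knockout IRI libraries with 272 and 1397 CPM of adrenal cortex transcripts and not in the one with 6.06 CPM, and the part of adrenal tissue in this value was not tested. The median of that list was -0.04 in both genotypes.

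Of 10 genes of other enzymes that feed ubiquinone, 5 fell in wild type, the succinate dehydrogenase subunits Sdha (-0.56), Sdhb (-0.78), Sdhc (-0.48) and Sdhd (-0.48) and proline dehydrogenase Prodh (-1.28), while Gpd2, the glycerol phosphate dehydrogenase of the inner membrane, rose (0.61, edgeR adjusted p = 0.0235). Among all genes 9.41% were called lower and 13.1% higher in wild type, so 1 of 10 higher is near the share of all genes. In knockout Prodh (-1.04) and Sdhb (-0.62) fell by edgeR and none rose, against 2.42% of all genes lower and 3.9% higher. An unadjusted edgeR p under 0.05 was found for 5 of the 10, and DESeq2 called 5 lower (4402 and 1191 of all 19218 genes). Further down the chain 4 of 9 genes of complex III, 7 of 10 of complex IV and 11 of 16 of ATP synthase fell in wild type and none rose, with medians of -0.41, -0.40 and -0.49, close to the -0.47 of the complex I subunits. In knockout none of these genes was called by edgeR or limma-voom. An unadjusted edgeR p under 0.05 was found for 8, 6 and 14 of them, and DESeq2 called 5, 5 and 11 lower. Of all 19218 genes tested, 4402 had such a p and DESeq2 called 1191 lower. The medians of these lists were -0.38, -0.36 and -0.41, against -0.38 for the complex I subunits. Of 9 regulators of mitochondrial genes, the coactivator Ppargc1a (-1.21) and the nuclear receptor Esrra (-0.90) fell in wild type and the coactivator Pprc1 rose (1.28). The 1 of 9 that rose is also near the 13.1% of all genes called higher. In knockout Pprc1 rose (1.07) and the others were not called. In the genotype comparisons and the interaction no gene of these lists was called by edgeR or limma-voom. An unadjusted edgeR p under 0.05 was found there for at most 4 of the iron-sulfur list and 1 of any other list. DESeq2 called 1 iron-sulfur gene, again Fdxr, higher in knockout after IRI and 1 ubiquinone-reducing gene, Gpd2, higher in knockout control. Of all genes DESeq2 called 0.609% between the genotypes after IRI and 0.375% in control kidneys.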

How the data were processed

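The authors deposited whole-number read counts per Ensembl gene for 12 libraries of whole mouse kidney, without normalization. Per the labels' protocols, libraries were depleted of ribosomal RNA, mark the strand and were read from both ends. Per the submitters' processing notes STAR and mm10 were used; aligner version, counting tool and use of strand: not given in the sources used here. Each column was assigned by its sample's title.

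Counts were tested with edgeR 4.0.16 (R 4.3.3): filterByExpr by group (minimum count 10, minimum total 15; 19218 genes kept), TMM scaling, and 1 quasi-likelihood fit of all 12 libraries with a coefficient per group and 8 residual degrees of freedom. Tests were two-sided, with Benjamini-Hochberg adjustment over all genes tested and a call at an adjusted p under 0.05. Called means past this threshold, and rose and fell are used only of called genes. The SE comes from the unshrunken coefficient and the F statistic. The procedure was run on simulated data with larger changes than those of the members, so that run does not cover changes of their size. Ndufb4, whose row repeats its symbol and type, counts as 1 gene. Annotation was GENCODE M21, which held 42548 of the 42748 identifiers and all 46 members. Lengths were those of principal transcripts or of all exons.

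Library depth limits the precision of low genes most: Ndufa4l2 had the fewest counts of the tested members. Alternatives were RLE scaling, library sizes alone, protein-coding genes only, no filter, a filter of 1 CPM in 3 libraries, DESeq2 1.42.0, limma-voom (limma 3.58.1), a fit of the compared groups alone, a replicate block, a Y-linked covariate and left-out libraries. The members, lists and alternatives were chosen with earlier results of these data known. Values in every library are given for the core subunits, for the up to 2 called members with the largest change and the member with the smallest change in wild type of each role, for Ndufa4 and Ndufa4l2, and for the 3 members with the smallest p in each genotype comparison and the interaction. Ndufc2 was added after its values were seen. The values of 1 member, which enters the counts and medians, are not reported here.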

Additional observations from a re-analysis of the deposited data

How the results depend on the processing

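The fall of 22 members after IRI in wild type was 18 to 26 with RLE scaling, library sizes alone, protein-coding genes only, no filter, a filter of 1 CPM, DESeq2 or limma-voom. It was 3 with only the groups compared, 0 with the Y-linked covariate, and 7 to 28 with 1 library left out. In the full fit 22.5% of all genes were called, against 13.4% to 30.5% under the settings that gave 18 to 26. The share was 6.68% with only the groups compared, 1.59% with the covariate and 8.04% to 36.1% with 1 library left out. In knockout 4 members were lower in the full fit, with 6.32% of all genes called in either direction. The 4 became 2 with library sizes alone (7.97% of all genes), 7 with a filter of 1 CPM (7.49%) and 20 with DESeq2 (13%). They became 0 with the Y-linked covariate (6.02%), 0 without both adrenal libraries (0.219%) and 0 to 15 with 1 library left out (0.912% to 14.7%). Without the IRI libraries of intermediate Y-linked sum (replicate 1 of knockout, replicate 2 of wild type) they became 8 (9.08%). In wild type 27 members were lower without these libraries (33.6% of all genes) and 16 without the adrenal ones (14.8%). No member rose under any setting, and the medians with 1 library left out stayed between -0.54 and -0.35 in wild type and between -0.43 and -0.27 in knockout. Over 24 alternatives and 45 members, 130 results in wild type lost their call and 24 gained one, 49 and 48 in knockout, and no called value changed sign. The genotype comparisons and the interaction gave no called member under any alternative run. Library sizes alone moved the median of all genes to 0.09 for knockout against wild type after IRI and to 0.13 for the interaction; the members' medians were then 0.17 and 0.23, and 2 members in each had an unadjusted p under 0.05, fewer than the 8 and 6 without wild-type IRI replicate 2. The interaction could not be fitted with only 2 groups. The causes of these shifts were not tested.

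The labels do not say whether the replicate numbers pair the libraries. Same-numbered libraries deviated from their group means with correlations from -0.42 to 0.08, and libraries of different numbers with -0.24 to 0.43. With 3 libraries per group these values cannot decide whether the libraries were paired. With the replicate block 13 members were lower in wild type and 0 in knockout. Of all genes 14.2% and 2.44% were then called, against 22.5% and 6.32% in the full fit.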

Other observations

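The table also held 4 pseudogenes with Nduf names. Ndufa11b, a processed pseudogene, had 8 to 21 counts per library, and Ndufb4c, Ndufs6b and Ndufab1-ps had 0 in every library. Yjefn3, whose span encloses that of Ndufa13, had 137 to 292 counts per library, and Tssk6, on the other strand, 34 to 97. Smim27, which overlaps Ndufb6 on the other strand, had 24 to 80 counts per library.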
